A study of Rattus norvegicus with 30 samples.

Results

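Proteasome genes were described in the plantaris tendons of 30 rats as every gene in the count table whose name begins with Psma, Psmb, Psmc, Psmd or Psme and a number. The rule found 42 of 13124 genes, and all 42 had a mean of at least 3 counts per 1e+06 reads counted (CPM) in at least 1 of the 7 groups. Of these genes, 41 encode proteasome subunits, assembly chaperones or activators. The remaining gene, Psmc3ip, shares only its name with the family and encodes a cofactor of meiotic recombination, so it is counted with the 42 genes and described apart.

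The animals were male Sprague Dawley rats aged 3 months. The 3 control tendons came from rats with no tenotomy and no compound, and all other rats had a full-thickness tenotomy of both plantaris tendons that was repaired at once. Repaired rats were gavaged 2 times a day with vehicle (0 mg/kg) or with GSK2894631A, which inhibits hematopoietic prostaglandin D synthase, at 2 or 6 mg/kg, and the right tendon was taken for RNA after 7 or 21 days. At 7D the 0, 2 and 6 mg/kg groups held 5, 4 and 3 tendons, and at 21D each held 5, with total counts of 12405741 to 49909374 per tendon. A repaired tendon thus differed from a control tendon in surgery, gavage and time, which cannot be told apart here.

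The proteasome degrades proteins that carry a ubiquitin chain. Its barrel-shaped 20S core is built from rings of alpha and beta subunits, and 3 of the beta subunits cut peptide bonds. The 19S particle caps the barrel, where its ATPases unfold the substrate and its other subunits bind ubiquitin and remove it. Interferons and other inflammatory signals replace the cutting subunits by immunoproteasome counterparts, whose peptides are presented on major histocompatibility complex (MHC) class I molecules, and immune cells carry these forms without a stimulus. Other activators, encoded by the Psme genes, open the core without ubiquitin. In skeletal muscle the proteasome breaks down myofibrillar proteins during atrophy, with substrates marked by ubiquitin ligases such as Trim63 and Fbxo32.

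Repaired tendons held less of most proteasome transcripts and more of the 3 immunoproteasome transcripts. In the 7D 0 mg/kg group, 33 of 42 genes were lower than in control tendons and 4 were higher, where a change means an adjusted p under 0.05 in the quasi-likelihood test of edgeR, adjusted by Benjamini-Hochberg across 12558 genes. Among all genes tested, 35.6% were lower and 35.8% were higher, so the share of lower genes, 78.6%, stood against a background of 35.6% and the share of higher genes, 9.52%, against 35.8%. The median log2 fold change was -0.72 over the 42 genes and 0.05 over all genes. Tendons of the groups did not overlap for 30 of the 42 genes on the lower side and 4 on the higher side, beside 30.7% and 31.2% of all genes. Less RNA per cell and fewer cells of a type cannot be told apart in these bulk samples.

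The other repaired groups were set against the same 3 control tendons. At 7D, 30 genes were lower and 6 higher with 2 mg/kg (background 34.0% and 35.8%), and 29 were lower and 5 higher with 6 mg/kg (33.8% and 34.1%). At 21D, 34 were lower and 3 higher with 0 mg/kg (33.7% and 32.2%), 34 and 4 with 2 mg/kg (35.3% and 33.8%), and 31 and 2 with 6 mg/kg (33.3% and 30.8%). At 21D 0 mg/kg, tendons did not overlap with control tendons for 32 genes on the lower side and 4 on the higher side, beside 27.8% and 25.0% of all genes. In all 6 repaired groups 29 genes were lower, and Psmb8 and Psmb10 were higher, beside 27.7% and 24.4% of all genes tested. Psmb4 and Psme3 passed the test in none of the 6 groups, and the other 9 genes passed in some. When control replicate 2 was left out, the count of higher genes went from 4 to 0 in the 21D 2 mg/kg group, from 2 to 1 in the 21D 6 mg/kg group and from 5 to 3 in the 7D 6 mg/kg group. Without control replicate 4 these counts were 2, 1 and 3, and without replicate 5 of the 7D 6 mg/kg group the count of that group was 3.

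**Figure D1:**
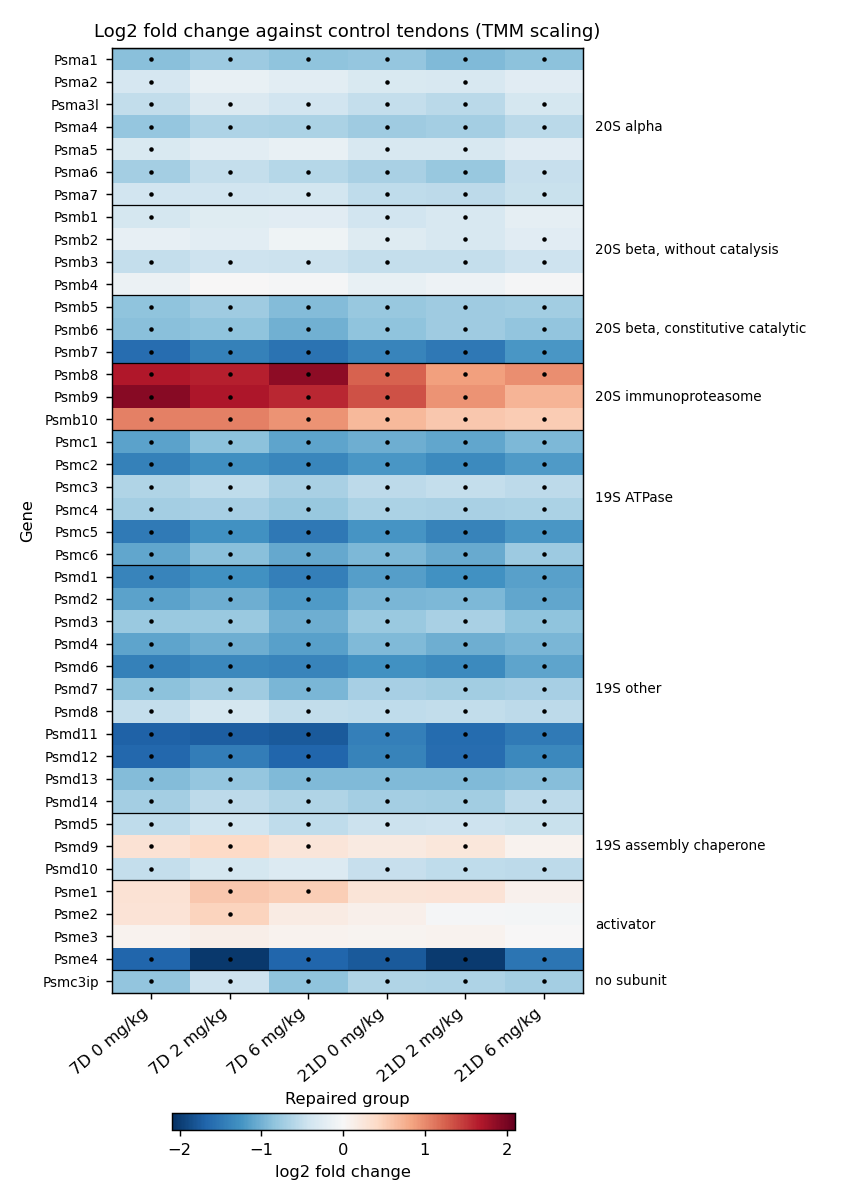
Log2 fold change of the 42 genes (y axis, by class) in the 6 repaired groups against control tendons (x axis) after TMM scaling, which sets libraries to a common level by a trimmed mean of log ratios. Red is higher, blue is lower, and a dot marks an adjusted p under 0.05 in edgeR. The immunoproteasome genes are the red block, while nearly all core and 19S genes are blue. For 10 of the 33 genes lower at 7D 0 mg/kg the sign turns when counts are scaled by library size alone.

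The direction of many of these genes depended on how libraries were scaled, and control tendons carried a large share of muscle transcripts. A list of 27 skeletal muscle genes, of which 22 were tested, made up 19.7 to 27.6% of each control library, 0.175 to 1.31% in the 7D 0 mg/kg group, 0.00962 to 0.0122% with either dose at 7D, and 0.0667 to 9.71% at 21D. TMM scaling factors were 0.599 to 0.788 in control tendons and 0.950 to 1.10 in repaired tendons. Tendon markers (Tnmd, Scx, Mkx, Fmod, Thbs4 and Comp) were present in every group, with summed levels of 1509 to 5741 CPM in control tendons and 1026 to 4404 CPM in repaired tendons. A list of 10 leukocyte genes summed to 169 to 675 CPM in control tendons and to 1160 to 2414 CPM at 7D 0 mg/kg, and 5 proliferation genes to 23.3 to 37.0 and 112 to 164 CPM. At 7D 0 mg/kg all 5 proliferation genes were higher, and 3 of the 6 tendon genes were lower while 3 did not pass. Among all genes 35.8% were higher and 35.6% lower.

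With library size in place of TMM, the median log2 fold change of all genes at 7D 0 mg/kg moved from 0.05 to 0.64, and the proteasome genes moved with it to a median of -0.09, with 16 lower and 12 higher beside 19.3% and 59.5% of all genes. In that scaling 10 of the 33 genes that had been lower had a positive fold change, and Psma2, Psma5 and Psma7 passed the test as higher. With the muscle genes removed and library size used, 27 were lower and 7 higher, beside 28.0% and 44.6% of all genes and an all-gene median of 0.28. With the muscle share as a covariate the counts were 27 and 2 at 7D 0 mg/kg (26.9% and 22.2%), but only 5 lower and none higher in edgeR at 7D 2 mg/kg (6.65% and 4.76%) and 9 and none at 7D 6 mg/kg (6.86% and 5.10%). At 21D the covariate left 32, 32 and 29 lower with 0, 2 and 6 mg/kg (28.3%, 30.6% and 28.7%) and 1, 0 and 0 higher (23.1%, 26.2% and 23.0%). Muscle shares of control tendons (19.7 to 27.6%) lay above those of every repaired tendon (at most 9.71%). The covariate fit therefore extrapolates between them and cannot separate muscle share from repair. Relative to the median of all genes at 7D 0 mg/kg, the same 35 genes lay below it in each of the 5 fits (TMM, RLE, library size, muscle genes removed, and the covariate). A change of scaling moves every gene and this median nearly alike, so the count could hardly differ between scalings. The covariate fit put 38 genes below its median. The 7 not below the median with TMM were Psmb8, Psmb9, Psmb10, Psmd9, Psme1, Psme2 and Psme3. Directions are given on the TMM scale unless another is named. At 7D 0 mg/kg 16 genes were lower in each of the 5 fits, among them Psmb7, Psmc5, Psmd11 and Psme4, and at 21D 0 mg/kg 15 were. The share of all genes lower in each of the 5 fits is not given here. As a share of all counts, which is the library-size scale, the 41 genes together took 0.484 to 0.532% in control tendons. The share was 0.401 to 0.471% at 7D 0 mg/kg and 0.398 to 0.461% at 21D 0 mg/kg, both below the control range. At 7D 2 mg/kg the share was 0.404 to 0.503%, with replicate 5 inside the control range. Abundant genes weigh most in this sum, such as Psme4, with TMM-scaled means of 755 CPM in control tendons and 237 CPM at 7D 0 mg/kg. The sum does not show a decrease across the family, since on that scale 16 genes were lower and 12 higher at 7D 0 mg/kg.

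**Figure D2:**
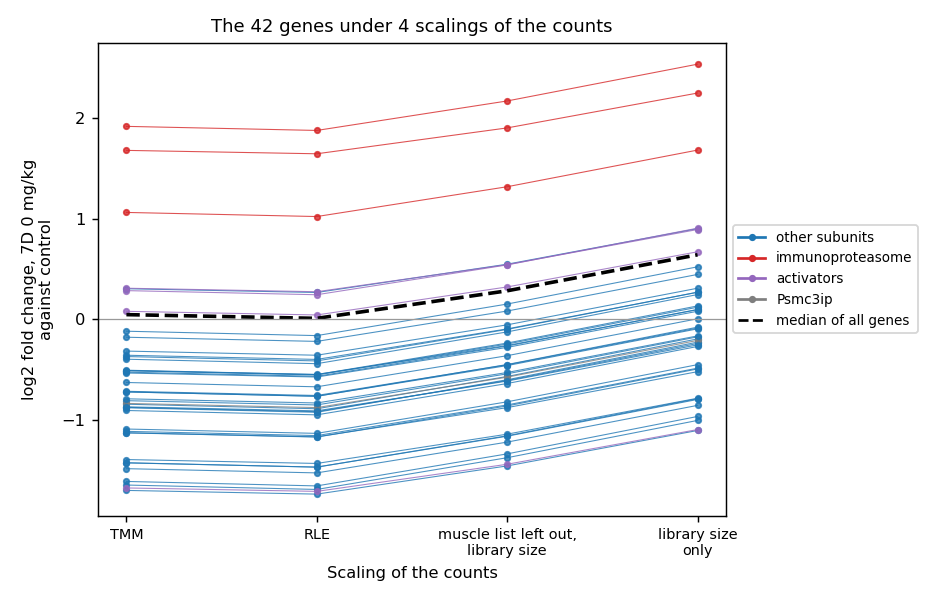
Log2 fold change at 7D 0 mg/kg against control tendons (y axis) of each of the 42 genes under 4 scalings of the counts (x axis). Each thin line is a gene, coloured by class, and the dashed line is the median of all genes tested, which moves from 0.05 with TMM to 0.64 with library size. Every gene moves with the dashed line, so that 12 of the 42 change sign with library size while 35 stay below the median of all genes.

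The immunoproteasome genes were the ones furthest above the median gene. Psmb8 encodes the beta5i subunit (ENSRNOG00000000456, chromosome 20), which takes the place of the chymotrypsin-like subunit beta5. Its level was 9.58, 12.4 and 8.17 CPM in the 3 control tendons and 25.5, 22.5, 51.0, 25.0 and 37.5 CPM in the 7D 0 mg/kg tendons. At 21D 0 mg/kg the 5 tendons held 20.4, 45.6, 18.3, 19.03 and 15.3 CPM of Psmb8. Every repaired tendon of these groups was above every control tendon, and replicate 2 at 21D stood far above its group. Psmb8 was 3.20-fold higher at 7D (log2 1.68, SE 0.33) and 2.35-fold higher at 21D (log2 1.23, SE 0.32), with edgeR Benjamini-Hochberg adjusted p of 7.21e-05 and 0.00174.

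Psmb9 encodes beta1i (ENSRNOG00000000459, chromosome 20), the counterpart of the caspase-like subunit beta1. Control tendons held 6.98, 14.7 and 16.7 CPM of Psmb9, and 7D 0 mg/kg tendons held 48.0, 33.5, 74.1, 46.3 and 38.0 CPM. At 21D 0 mg/kg Psmb9 was at 17.8, 70.1, 23.1, 25.4 and 24.9 CPM. The groups did not overlap, although the lowest tendon at 21D was close to the highest control tendon. Psmb9 was 3.77-fold higher at 7D (log2 1.92, SE 0.36, edgeR adjusted p = 4.47e-05) and 2.53-fold at 21D (log2 1.34, SE 0.35, edgeR adjusted p = 0.00177). At 21D 6 mg/kg, where its levels were 16.6 to 24.0 CPM, the difference did not pass (log2 0.71, edgeR adjusted p = 0.0716).

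Psmb10 encodes beta2i (ENSRNOG00000019494, chromosome 19), the counterpart of the trypsin-like subunit beta2. Its levels were 26.2, 36.2 and 44.2 CPM in control tendons and 73.7, 63.0, 99.8, 69.0 and 64.9 CPM at 7D 0 mg/kg. At 21D 0 mg/kg Psmb10 was at 44.3, 79.1, 50.5, 51.1 and 58.4 CPM, just above the highest control tendon in its lowest sample. The fold was 2.09 at 7D (log2 1.06, SE 0.16, edgeR adjusted p = 3.67e-06) and 1.60 at 21D (log2 0.68, SE 0.16, edgeR adjusted p = 0.000813).

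Replicate 2 of the 21D 0 mg/kg group held the highest levels of all 3 genes in that group, together with the lowest muscle share (0.0667%) and the highest leukocyte sum (3517 CPM). Without it the log2 fold changes at 21D fell to 0.85 for Psmb8, 0.84 for Psmb9 and 0.53 for Psmb10, and all 3 still passed the test (edgeR adjusted p = 0.00727, 0.00681 and 0.00285). With the muscle share as a covariate, Psmb8 was at 0.73 and 0.53 at 7D and 21D and did not pass (edgeR adjusted p = 0.0729 and 0.125). Under the same covariate Psmb9 was at 0.94 and 0.55 (edgeR adjusted p = 0.0340 and 0.146) and Psmb10 at 0.70 and 0.42 (0.00493 and 0.0390). The leukocyte genes rose with the immunoproteasome genes, 10 of 10 at 7D 0 mg/kg and 9 of 10 at 21D 0 mg/kg, beside 35.8% and 32.2% of all genes. The part of the leukocyte genes in the result was not tested.

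The constitutive counterparts were lower. Psmb5 encodes beta5 (ENSRNOG00000013386, chromosome 15) and was at 145, 135 and 255 CPM in control tendons. In the 7D 0 mg/kg tendons Psmb5 was at 102, 94.0, 107, 103 and 91.8 CPM, below every control tendon, and at 21D 0 mg/kg it was at 105, 88.1, 108, 103 and 111 CPM. The log2 fold change of Psmb5 was -0.84 (SE 0.13) at 7D and -0.79 (SE 0.13) at 21D, with edgeR adjusted p of 5.2e-06 and 1.65e-05. Psmb6 encodes beta1 (ENSRNOG00000019551, chromosome 10). It was at 33.8, 27.6 and 57.5 CPM in control tendons and 27.2, 19.98, 20.004, 20.8 and 19.8 CPM at 7D 0 mg/kg, with the highest repaired tendon just below the lowest control tendon. Psmb6 changed by a log2 of -0.88 (SE 0.18) at 7D and -0.84 (SE 0.18) at 21D (edgeR adjusted p = 0.00013 and 0.000271).

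Psmb7, which encodes beta2 (ENSRNOG00000011732, chromosome 3), was the most reduced of the constitutive catalytic genes. Control tendons were at 253, 224 and 414 CPM, 7D 0 mg/kg tendons at 110.2, 89.8, 97.6, 97.2 and 92.9 CPM, and 21D 0 mg/kg tendons at 123, 94.0, 103, 110.1 and 139.7 CPM. No repaired tendon of these groups came near the control range. Psmb7 was 3.04-fold lower at 7D and 2.60-fold lower at 21D (log2 -1.61 and -1.38, SE 0.15 and 0.15, edgeR adjusted p = 1.3e-09 and 3.11e-08). With library size alone Psmb7 remained lower (log2 -0.96 at 7D, edgeR adjusted p = 1.66e-07), while Psmb5 (-0.19) and Psmb6 (-0.22) did not pass. In all 3 genes control replicate 4, which had the largest muscle share (27.6%), was the highest control tendon. Without it the 7D values were -0.55 for Psmb5, -0.57 for Psmb6 and -1.35 for Psmb7, all past the test.

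**Figure D3:**
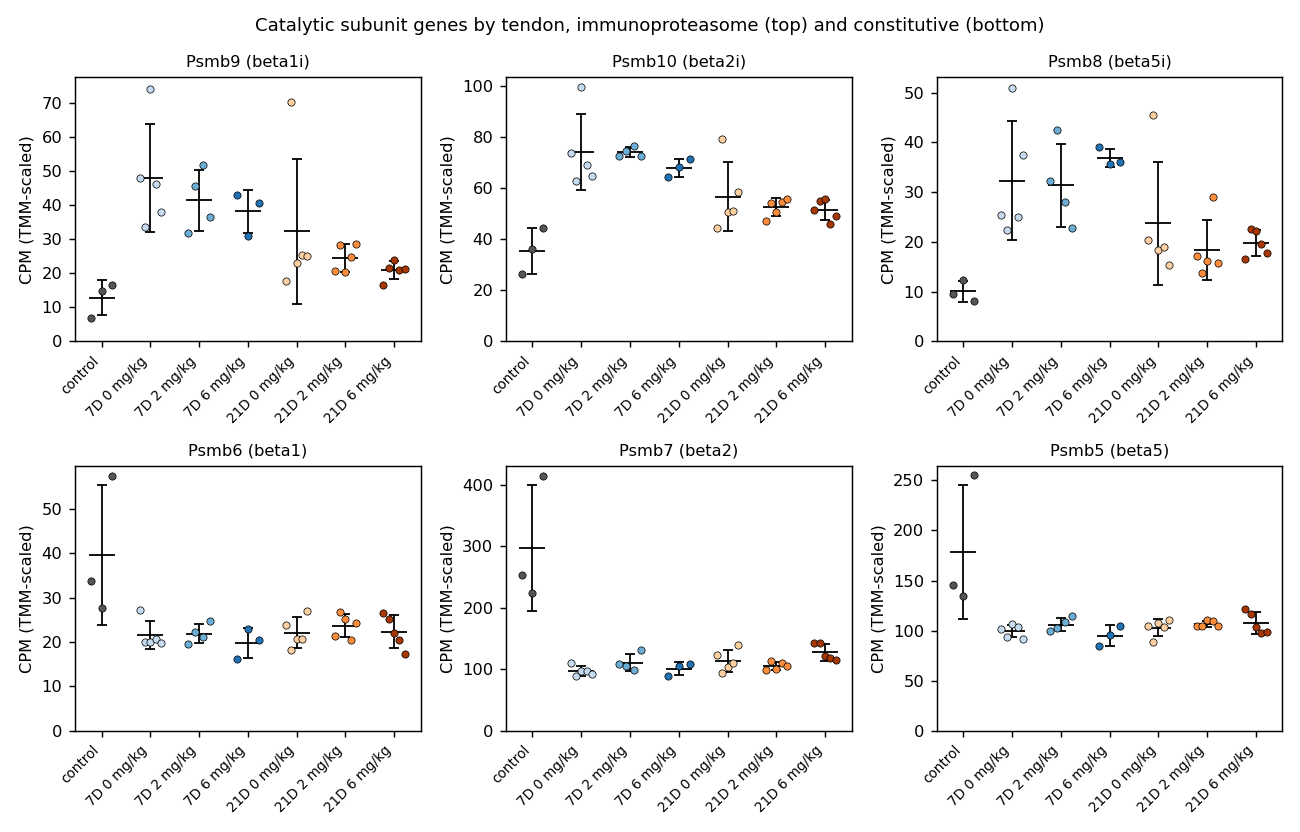
Levels in CPM after TMM scaling (y axis, from 0) of the immunoproteasome genes Psmb9, Psmb10 and Psmb8 (top) and of Psmb6, Psmb7 and Psmb5, the constitutive genes of the same positions (bottom), in the 7 groups (x axis). Points are tendons, horizontal marks are means and bars are SD. Control tendons are the lowest group in the top row and the highest in the bottom row. Psmb5 and Psmb6 do not pass the test at 7D 0 mg/kg with library size alone.

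Because each immunoproteasome subunit shares its place in the core with a constitutive subunit, the ratio of their counts was taken within each tendon. Such a ratio does not depend on library scaling, and a difference between groups in the ratio does not depend on gene length. The log2 ratio of Psmb8 to Psmb5 was -3.92, -3.43 and -4.96 in control tendons and -1.999, -2.06, -1.07, -2.04 and -1.29 at 7D 0 mg/kg. The difference of means was 2.41, or 5.32-fold, and at 21D 0 mg/kg it was 1.87, or 3.66-fold. The ratio of Psmb9 to Psmb6 was -2.27, -0.91 and -1.78 in control tendons and 0.82, 0.74, 1.89, 1.15 and 0.94 at 7D 0 mg/kg, a difference of 2.77 (6.80-fold), with 2.03 (4.07-fold) at 21D. For Psmb10 to Psmb7 the control tendons were at -3.27, -2.63 and -3.23 and the 7D 0 mg/kg tendons at -0.58, -0.51, 0.03, -0.49 and -0.52. That pair differed by 2.63 (6.18-fold) at 7D and 2.02 (4.05-fold) at 21D.

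In none of these 6 comparisons did the groups overlap. The exact two-sided permutation test gave p = 0.0179 for each, which is the smallest that 3 against 5 tendons allow, and 0.0268 after Benjamini-Hochberg adjustment over the 9 ratio tests. With any 1 control tendon left out the smallest possible p rises and no comparison with control tendons passed (exact permutation test, adjusted p = 0.0612 to 0.122). Both parts of each ratio moved: the immunoproteasome gene was higher and its counterpart lower on the TMM scale.

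Between 7D and 21D at 0 mg/kg the mean ratios fell by 0.54 for Psmb8/Psmb5, 0.74 for Psmb9/Psmb6 and 0.61 for Psmb10/Psmb7. None of the 3 passed after adjustment (exact permutation test, adjusted p = 0.183, 0.183 and 0.0510), and the groups overlapped. These results turned on replicate 2 of the 21D 0 mg/kg group: without it the differences were -0.86, -1.13 and -0.80, and the exact permutation test gave an adjusted p of 0.0238 for each. With 2 and 6 mg/kg the mean log2 ratios at 7D were -1.79 and -1.36 for Psmb8/Psmb5, 0.90 and 0.95 for Psmb9/Psmb6, and -0.58 and -0.57 for Psmb10/Psmb7, beside -1.69, 1.11 and -0.41 with 0 mg/kg.

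**Figure D4:**
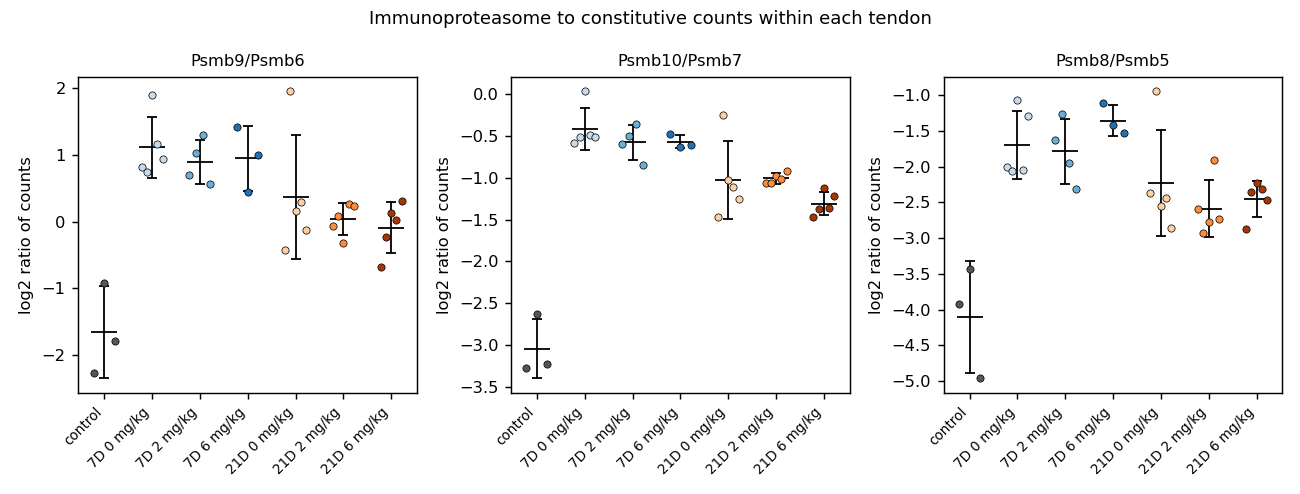
Log2 ratio of the counts of each immunoproteasome gene to those of its constitutive counterpart (y axis) in the tendons of the 7 groups (x axis). Points are tendons, horizontal marks are means and bars are SD. Control tendons lie below all 7D and 21D 0 mg/kg tendons in each pair, and replicate 2 at 21D 0 mg/kg lies above the rest of its group.

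The promoters of these 3 pairs are shown because the pairs moved in opposite directions. RefSeq windows of 300 bases, from 250 before to 50 after the gene start, were found for 38 of the 42 genes on the GRCr8 rat assembly and not for Psma7, Psmd6, Psmd12 and Psmd14. GRCr8 differs from the rn6 build behind the counts, so these coordinates apply to the sequences alone. Capitals mark the interferon-stimulated response element core (GAAA and GAAA with 2 free bases between them), the antioxidant response element core TGACNNNGC bound by NFE2L1 and NFE2L2, and the CCAAT box, each searched on both strands, with no overlap between the motifs marked.
Psmb8, chr20:4656982-4657281, minus strand: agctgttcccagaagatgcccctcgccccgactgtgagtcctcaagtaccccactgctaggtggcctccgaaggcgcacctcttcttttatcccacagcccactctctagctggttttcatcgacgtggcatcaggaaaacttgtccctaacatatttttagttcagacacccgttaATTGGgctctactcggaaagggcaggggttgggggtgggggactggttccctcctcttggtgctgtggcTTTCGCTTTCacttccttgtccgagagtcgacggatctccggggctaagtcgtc
Psmb9, chr20:4668750-4669049, plus strand: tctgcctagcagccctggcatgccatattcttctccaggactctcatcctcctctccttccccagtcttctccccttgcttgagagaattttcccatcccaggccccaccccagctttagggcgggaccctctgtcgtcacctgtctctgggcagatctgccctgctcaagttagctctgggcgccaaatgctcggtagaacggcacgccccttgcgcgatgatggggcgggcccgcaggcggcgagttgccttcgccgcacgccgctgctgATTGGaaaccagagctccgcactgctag
Psmb10, chr19:50743243-50743542, minus strand: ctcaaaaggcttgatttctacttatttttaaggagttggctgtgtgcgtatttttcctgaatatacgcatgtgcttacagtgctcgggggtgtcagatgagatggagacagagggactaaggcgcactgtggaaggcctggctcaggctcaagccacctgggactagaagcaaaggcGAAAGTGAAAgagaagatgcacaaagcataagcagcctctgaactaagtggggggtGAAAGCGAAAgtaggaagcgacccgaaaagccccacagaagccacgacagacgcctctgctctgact
Psmb5, chr15:32047330-32047629, minus strand: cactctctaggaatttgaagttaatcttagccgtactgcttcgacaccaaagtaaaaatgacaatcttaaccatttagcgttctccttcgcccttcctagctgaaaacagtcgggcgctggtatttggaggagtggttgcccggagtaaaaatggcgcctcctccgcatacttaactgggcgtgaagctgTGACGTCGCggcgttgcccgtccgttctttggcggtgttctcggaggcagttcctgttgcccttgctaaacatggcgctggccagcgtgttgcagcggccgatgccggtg
Psmb6, chr10:55737638-55737937, plus strand: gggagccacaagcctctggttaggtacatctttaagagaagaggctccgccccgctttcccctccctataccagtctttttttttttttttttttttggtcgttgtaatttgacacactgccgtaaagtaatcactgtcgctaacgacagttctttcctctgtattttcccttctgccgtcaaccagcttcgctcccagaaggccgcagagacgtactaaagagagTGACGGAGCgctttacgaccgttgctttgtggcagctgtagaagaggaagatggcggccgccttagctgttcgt
Psmb7, chr3:42827421-42827720, minus strand: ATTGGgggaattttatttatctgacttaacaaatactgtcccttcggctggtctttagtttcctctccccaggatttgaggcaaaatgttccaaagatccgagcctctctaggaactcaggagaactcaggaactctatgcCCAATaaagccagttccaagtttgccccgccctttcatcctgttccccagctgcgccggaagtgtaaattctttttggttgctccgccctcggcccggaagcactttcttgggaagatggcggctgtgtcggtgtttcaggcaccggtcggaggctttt

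Among the immunoproteasome promoters, Psmb8 held 1 interferon-stimulated core and 1 CCAAT box, Psmb10 held 2 interferon-stimulated cores, and Psmb9 held a CCAAT box alone. Of the constitutive promoters, Psmb5 and Psmb6 each held 1 antioxidant core and Psmb7 held 2 CCAAT boxes. The interferon-stimulated core was found in 6 of 38 promoters (Psma4, Psmb3, Psmb8, Psmb10, Psmd7 and Psme2), or 15.8%, beside 3.92% of all 33469 promoters. The antioxidant core was found in 8 of 38 (Psma3l, Psmb2, Psmb5, Psmb6, Psmd1, Psmd3, Psmd9 and Psme4), or 21.1%, beside 12.1% of all promoters. The CCAAT box was found in 20 of 38 (52.6% beside 37.5%). These are matches of letters in a window, and their part in the changes was not tested. Of the 6 genes with the interferon-stimulated core, Psmb8 and Psmb10 were higher at 7D 0 mg/kg with TMM. Psma4, Psmb3 and Psmd7 were lower there, and Psme2 did not pass. With library size alone Psmb3 was at 0.13.

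Psmb8 and Psmb9 lie in the MHC region of chromosome 20, where RefSeq orders the genes Tap2, Psmb8, Tap1 and Psmb9. The Psmb9 window shares 44 bases with that of Tap1, which is read from the other strand and encodes a subunit of the peptide transporter that carries proteasome products into the endoplasmic reticulum. Tap1 was 3.84-fold higher at 7D 0 mg/kg (log2 1.94) and 2.996-fold at 21D 0 mg/kg (log2 1.58), with edgeR adjusted p of 2.09e-05 and 0.000251. All 8 genes tested on a list of class I peptide supply were higher at both times at 0 mg/kg, beside 35.8% and 32.2% of all genes. Their median log2 fold change was 1.27 at 7D and 0.91 at 21D, beside 0.05 and 0.03 over all genes. The list included Tapbp (1.70 and 0.90), which bridges the transporter and class I molecules, B2m (0.66 and 0.86), the class I light chain, Nlrc5 (2.23 and 1.93), the class I transactivator, and Irf1 (1.30 and 0.93), an interferon-regulated transcription factor. At 21D 0 mg/kg Irf1 did not pass without control replicate 2 or without 21D replicate 2 (edgeR adjusted p up to 0.106). At 21D 5 of the 8 passed with 2 mg/kg and 6 with 6 mg/kg, beside 33.8% and 30.8% of all genes called higher. With the muscle share as a covariate Tap1 still passed at both times, while Nlrc5 passed at neither, B2m at 21D alone and Tapbp at 7D alone. Tap2 was not analysed here.

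Most of the other core genes were lower on the TMM scale, to differing degrees. The 7 alpha subunit genes encode the outer rings of the barrel. With TMM all 7 were lower at 7D and 21D 0 mg/kg, beside 35.6% and 33.7% of all genes. Their median log2 fold changes were -0.52 and -0.54. With library size alone Psma2, Psma5 and Psma7 passed as higher at 7D 0 mg/kg. Psma1 was the most reduced: control tendons held 124, 128 and 198 CPM and 7D 0 mg/kg tendons 87.8, 77.6, 82.8, 84.1 and 77.4 CPM, without overlap. Its log2 fold change was -0.87 (SE 0.12, edgeR adjusted p = 5.21e-07), and with library size alone it was -0.24 (edgeR adjusted p = 0.0357). Psma5 was the least reduced, at 110.3, 108 and 151 CPM in control tendons and 109, 89.2, 103, 97.2 and 97.1 CPM at 7D 0 mg/kg, where the highest repaired tendon overlapped the control range. Its log2 fold change of -0.31 (SE 0.12, edgeR adjusted p = 0.0239) turned to 0.31 with library size alone, and it did not pass without control replicate 4 (-0.20, edgeR adjusted p = 0.162) or without 7D replicate 2 (-0.28, edgeR adjusted p = 0.0561).

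The 4 beta subunit genes without catalytic activity were the least changed class of the core on the TMM scale. Their median log2 fold change was -0.27 at 7D and -0.33 at 21D. Psmb3 was at 90.1, 83.6 and 141 CPM in control tendons and 78.4, 67.1, 73.8, 78.4 and 71.5 CPM at 7D 0 mg/kg. All 5 repaired tendons were below the control range. Psmb3 was lower with TMM (log2 -0.50, SE 0.12, edgeR adjusted p = 0.00084) and at 0.13 with library size alone. Psmb4 was at 252, 263 and 426 CPM in control tendons and 316, 252, 308, 306 and 265 CPM at 7D 0 mg/kg, so the groups overlapped. Psmb4 did not pass (log2 -0.12, SE 0.14, edgeR adjusted p = 0.479), and its sign depended on control replicate 4, without which it was 0.11. With library size alone Psmb4 passed as higher at 7D 0 mg/kg (0.52, edgeR adjusted p = 0.00103).

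Genes of the 19S particle had lower median fold changes than those of the alpha rings, a difference that was not tested. The 6 ATPase genes, which form the ring that unfolds substrates, were all lower on the TMM scale at every dose and time. Among all genes 27.7% were lower in all 6 repaired groups. The median log2 fold change of the ATPase genes was -1.10 at 7D 0 mg/kg and -0.98 at 21D 0 mg/kg. Psmc5 was at 234, 226 and 333 CPM in control tendons and 102, 90.5, 92.0, 97.7 and 91.3 CPM at 7D 0 mg/kg. Every repaired tendon was far below the control range, and Psmc5 was 2.79-fold lower (log2 -1.48, SE 0.13, edgeR adjusted p = 8.63e-10). Psmc3, the least reduced ATPase gene, was at 237, 214 and 341 CPM in control tendons and 170.0, 163, 177, 175 and 169.5 CPM at 7D 0 mg/kg. It did not overlap either (log2 -0.62, SE 0.09, edgeR adjusted p = 2.5e-06), but with library size alone Psmc3 was at 0.01.

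The 11 other subunit genes of the 19S particle were lower in all 6 repaired groups on the TMM scale, beside 27.7% of all genes. Psmd8 turned to a positive sign with library size alone. At 7D 0 mg/kg the 11 genes ranged from -0.51 for Psmd8 to -1.70 for Psmd11 (median -1.11). At 21D 0 mg/kg the range was -0.54 to -1.43 (median -0.93). Psmd11, a scaffold subunit of the lid, had tight values of 224, 229 and 218 CPM in control tendons and 75.8, 65.8, 69.3, 66.0 and 68.7 CPM at 7D 0 mg/kg. At 21D 0 mg/kg Psmd11 was at 85.3, 77.4, 70.6, 83.0 and 98.7 CPM, so that the highest repaired tendon was far below the lowest control tendon. It was 3.24-fold lower at 7D and 2.70-fold lower at 21D (log2 SE 0.11 and 0.11, edgeR adjusted p = 1.15e-11 and 5.15e-10). Control replicate 4, the highest control tendon for the constitutive catalytic genes, was not the highest for Psmd11. At 21D 0 mg/kg replicate 5, with the largest muscle share of its group (8.01%), held the highest Psmd11 level (98.7 CPM). The part of muscle content in the Psmd11 decrease was not tested.

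Of the 3 chaperone genes that help build the base of the 19S particle, Psmd5 and Psmd10 were lower at 7D 0 mg/kg (-0.53 and -0.51) and Psmd9 was higher. Psmd9 was at 17.9, 17.9 and 18.1 CPM in control tendons and 22.1, 20.8, 23.0, 21.4 and 23.4 CPM at 7D 0 mg/kg, without overlap. The change was small (log2 0.30, SE 0.09, edgeR adjusted p = 0.0046) and it did not pass with the muscle share as a covariate (0.21, edgeR adjusted p = 0.162), at 21D 0 mg/kg (0.19, edgeR adjusted p = 0.073) or 21D 6 mg/kg (0.07, edgeR adjusted p = 0.521).

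The 4 activator genes diverged. Psme4 encodes PA200, a large activator of the core known for histone degradation (ENSRNOG00000060340, chromosome 14). It was at 867, 781 and 616 CPM in control tendons, 257, 273, 231, 211 and 214 CPM at 7D 0 mg/kg and 211, 197, 182, 219 and 304 CPM at 21D 0 mg/kg. Even the highest repaired tendon was below the lowest control tendon by a wide margin. Psme4 was 3.18-fold lower at 7D and 3.39-fold lower at 21D (log2 -1.67 and -1.76, SE 0.17 and 0.17, edgeR adjusted p = 5.39e-09 and 7.79e-09), and its log2 fold changes across the 6 repaired groups lay between -1.54 and -2.02. Control replicate 4, the tendon richest in muscle transcripts, had the lowest Psme4 level of the control tendons. At 21D 0 mg/kg the order was the other way: replicate 5, with the largest muscle share of its group (8.01%), had the highest level (304 CPM). The part of muscle content in the Psme4 decrease was not tested.

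Psme1 and Psme2 encode the subunits of PA28, an interferon-inducible activator linked to class I peptide production, and both lie on chromosome 15. Psme1 was at 8.30, 9.38 and 7.52 CPM in control tendons and 12.0, 8.42, 11.4, 8.96 and 11.4 CPM at 7D 0 mg/kg, with some repaired tendons inside the control range. It did not pass there (log2 0.31, SE 0.16, edgeR adjusted p = 0.0867) but did at 7D with 2 mg/kg (0.57, edgeR adjusted p = 0.00411) and 6 mg/kg (0.51, edgeR adjusted p = 0.0143), where all tendons were above the control range. At 7D 0 mg/kg Psme1 was at -0.05 with the muscle share as a covariate but passed with library size alone (0.89, edgeR adjusted p = 0.000104) and with muscle genes removed (0.54, edgeR adjusted p = 0.00525), and at 21D 0 mg/kg it passed under the same scalings (0.81 and 0.51). Psme2 was at 7.60, 10.9 and 13.8 CPM in control tendons and 13.8, 11.7, 17.6, 10.6 and 11.7 CPM at 7D 0 mg/kg, which overlapped. With TMM Psme2 passed at 7D 2 mg/kg alone (0.47, edgeR adjusted p = 0.0216), with 13.1, 15.8, 13.7 and 16.96 CPM. It passed at 7D and 21D 0 mg/kg with library size alone (0.91 and 0.69) and with muscle genes removed (0.54 and 0.37), and at 7D 0 mg/kg without control replicate 4 (0.44, edgeR adjusted p = 0.035). Neither gene passed the test across doses at 7D or 21D. Psme1 and Psme2 have 2 and 3 pseudogenes in RefSeq, and 18 of the 42 genes have at least 1, among them Psmb3, Psmb6 and Psmb7, so reads may be shared with these copies.

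Psme3 encodes PA28 gamma, a nuclear activator that interferon does not induce. It was at 43.9, 34.1 and 33.8 CPM in control tendons, 39.8, 38.3, 38.4, 37.4 and 43.2 CPM at 7D 0 mg/kg and 41.4, 45.1, 36.4, 36.4 and 34.5 CPM at 21D 0 mg/kg. All groups overlapped, and with TMM no log2 fold change exceeded 0.12 (smallest edgeR adjusted p = 0.31, at 7D 2 mg/kg). At 7D and 21D 0 mg/kg Psme3 passed as higher with library size alone (0.67 and 0.61, edgeR adjusted p = 1.75e-05 and 7.04e-05) and with muscle genes removed (0.32 and 0.31, edgeR adjusted p = 0.00873 and 0.0135).

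**Figure D5:**
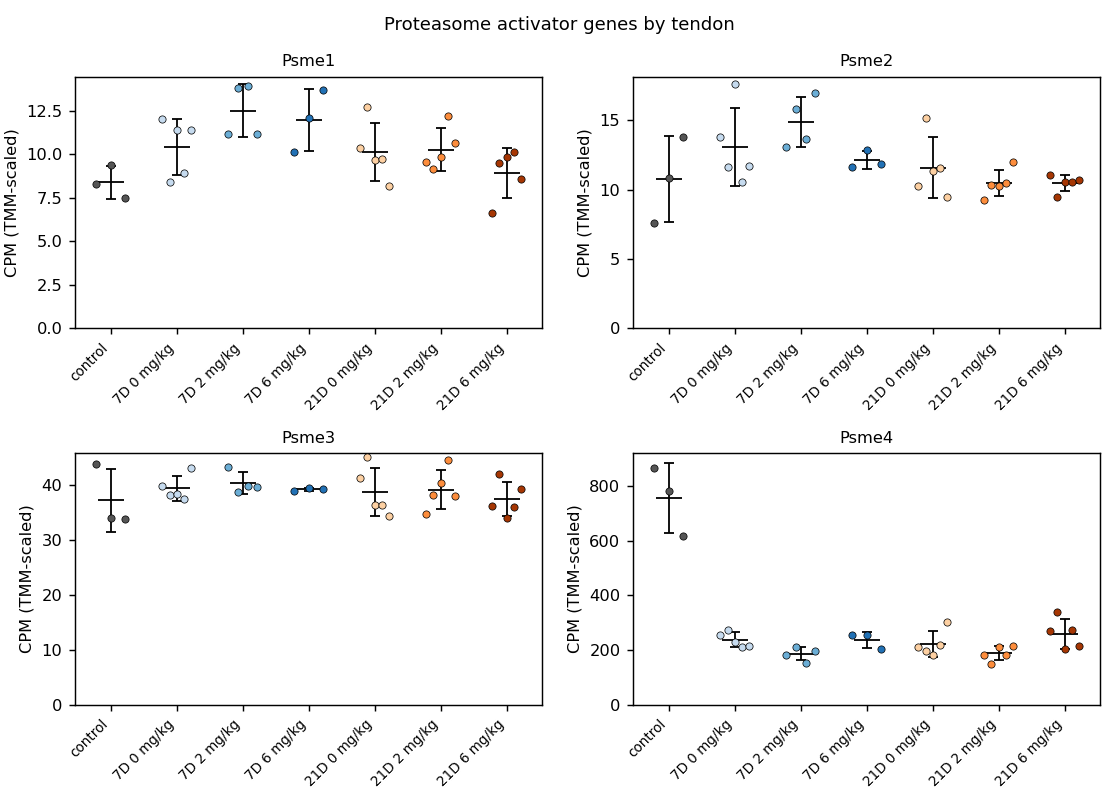
Levels in CPM after TMM scaling (y axis, from 0) of the activator genes Psme1, Psme2, Psme3 and Psme4 in the 7 groups (x axis). Points are tendons, horizontal marks are means and bars are SD. Psme4 falls from 616 to 867 CPM in control tendons to 211 to 273 CPM at 7D 0 mg/kg, while Psme3 overlaps throughout on this scale but passes as higher at 0 mg/kg with library size alone.

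Psmc3ip, which is no subunit, was at 7.88, 9.86 and 13.6 CPM in control tendons and 6.28, 6.00, 5.51, 5.86 and 5.56 CPM at 7D 0 mg/kg, without overlap. With TMM it was lower in all 6 repaired groups (at 7D 0 mg/kg, log2 -0.83, SE 0.17, edgeR adjusted p = 9.53e-05). With library size alone Psmc3ip did not pass (-0.21 at 7D and -0.042 at 21D, edgeR adjusted p = 0.238 and 0.819), nor at 21D with muscle genes removed (-0.36, edgeR adjusted p = 0.0594).

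Genes that assemble, partner or regulate the proteasome moved mostly in the direction of the core genes on the TMM scale. Of 14 genes tested on a list of assembly factors and partners, 10 were lower and none higher at 7D 0 mg/kg, beside 35.6% and 35.8% of all genes, with a median log2 fold change of -0.68. Psmg1, a chaperone of the alpha ring, was lower (-0.67, but -0.03 with library size alone), as were Adrm1, a ubiquitin receptor of the 19S particle (-0.82), and Usp14, a deubiquitinase that binds it (-1.19). The largest decreases were those of Ecpas, a scaffold protein that binds the 19S particle (-2.48), and Zfand5, a ubiquitin-binding activator of the 26S proteasome known from muscle atrophy (-2.30), with edgeR adjusted p of 7.86e-11 and 3.79e-10. Sem1, a small subunit of the 19S lid that the naming rule leaves out, averaged 202 CPM in the 3 control tendons (SD 98.9) and 168 CPM in the 5 tendons at 7D 0 mg/kg (SD 21.7) and did not pass (log2 -0.27, edgeR adjusted p = 0.242). Pomp was not analysed here.

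Nfe2l1 encodes the transcription factor that raises proteasome genes when proteasome activity is short. It was 4.45-fold lower at 7D 0 mg/kg (log2 -2.15, edgeR adjusted p = 1.22e-07) and 2.71-fold lower at 21D 0 mg/kg (-1.44, edgeR adjusted p = 4.78e-05). Ddi2, the protease that activates it, was lower as well (-0.69 and -0.39), but not with library size alone (-0.08 and 0.19), and at 21D it did not pass without control replicate 4 (-0.29) or 21D replicate 3 (-0.31). Of the 4 genes of that list, 3 were lower at every dose and time and 1 passed in no group. Among all genes 27.7% were lower in all 6 repaired groups and 15.2% passed in none. Among ubiquitin genes and ligases, 5 of 8 were lower and 2 higher at 7D 0 mg/kg, beside 35.6% and 35.8% of all genes. The muscle ligases Trim63 (31.5-fold lower, log2 -4.97, but -0.41 with the muscle share as a covariate) and Fbxo32 (4.51-fold, -2.17) fell furthest, and Vcp, an unfoldase that delivers substrates to the proteasome, was 2.33-fold lower (-1.22). The skeletal muscle list fell by more, with all 22 genes lower, beside 35.6% of all genes, and a median of -5.81. Its part in the decrease of the proteasome genes was not tested, since the covariate fit cannot separate muscle share from repair.

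Repaired tendons at 21D were next set against those at 7D at the same dose. With 0 mg/kg none of the 42 genes passed in edgeR in either direction, beside 2.88% of all genes higher and 2.47% lower, and DESeq2 called none higher and 1 lower. At an unadjusted p under 0.05, 4 were higher and 1 lower. All-gene shares at an unadjusted p are not given here for the comparisons between times. Without replicate 2 of the 21D 0 mg/kg group 3 genes were lower. With 2 mg/kg none was higher in edgeR or DESeq2 (background 7.09%, and 0 at an unadjusted p under 0.05) and Psmb10 and Psme2 were lower (5.98%), with log2 fold changes of -0.50 and -0.50 and edgeR adjusted p of 0.0234 and 0.0303. Psmb10 went from 72.4, 74.5, 76.6 and 72.5 CPM at 7D 2 mg/kg to 47.0, 54.4, 50.7, 54.5 and 55.6 CPM at 21D, without overlap. With 6 mg/kg none was higher in edgeR (8.54%, and 7 at an unadjusted p under 0.05), DESeq2 called 1 higher, and Psmb8 was lower (4.55%), from 39.0, 35.7 and 36.1 CPM to 16.6, 22.6, 22.2, 19.5 and 17.9 CPM (log2 -0.90, SE 0.30, edgeR adjusted p = 0.0445). These calls rested on single tendons: at 2 mg/kg leaving out 1 tendon gave a count of 0 or 1 in 5 of 9 cases, including 0 without 7D replicate 5 or 21D replicate 1, and at 6 mg/kg it was 0 in 7 of 8. On the higher side at 6 mg/kg, 2 genes passed without 21D replicate 3 and 1 without 21D replicate 5.

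At each time, 1 F-test asked whether the 0, 2 and 6 mg/kg groups differed. None of the 42 genes differed at 7D, beside 2.05% of all genes, or at 21D, beside 0.00%, and no gene showed a dose effect that differed between the times, beside 0.390%. Before adjustment 2 of the 42 genes had an edgeR p under 0.05 at 7D, 1 at 21D and none in the interaction. Among all 12558 genes these counts were 1576, 1366 and 985. The smallest adjusted p values in edgeR were 0.309 for Psmc3ip, 0.358 for Psme4 and 0.650 for Psmc6. DESeq2 called 1 gene across doses at 7D. At 7D Psmb8 was at 32.3 ± 12.0 (SD, n = 5), 31.4 ± 8.35 (SD, n = 4) and 36.9 ± 1.80 CPM (SD, n = 3) with 0, 2 and 6 mg/kg, and Psmb9 at 48.0 ± 15.8, 41.4 ± 8.97 and 38.2 ± 6.34 CPM. At 21D Psmb8 was at 23.7 ± 12.4, 18.4 ± 6.12 and 19.8 ± 2.64 CPM (SD, n = 5 each).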

How the data were processed

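RNA from 30 right plantaris tendons was sequenced, 1 tendon per rat, and samples were grouped by their labels. The authors deposited raw read counts for 13124 genes, made by trimming with fastp, mapping to the rn6 build with STAR and counting in Ensembl exons, after removal of genes with low expression. A second deposited table holds their own comparisons (log2 fold changes, p-values and mean log2 CPM) and was not used. Only the chromosome of each gene was read from it.

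A gene was kept when its group mean reached 3 CPM in any of the 7 groups (12558 kept, 566 removed). Counts were scaled by TMM and fitted with 1 mean per group over all 30 tendons in edgeR 4.0.16 (R 4.3.3, limma 3.58.1), with the quasi-likelihood F-test and Benjamini-Hochberg adjustment. An adjusted p under 0.05 was a call, with no fold threshold. Log2 ratios of counts within a tendon (0.5 counts added) were compared by exact two-sided permutation tests. Alternatives were RLE and library-size scaling, muscle genes removed, the muscle share as a covariate, no filter, only the groups compared, DESeq2 1.42.0, a 1.5-fold threshold, the replicate number as a block and each tendon left out. The procedure was tested on simulated data.

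In each tendon 3 counts corresponded to 0.0601 to 0.242 CPM, which covers counting error only. No tendons of the same group were duplicates: the smallest chi-square per gene within a group was 30.1. Pairs of tendons from different groups were not checked. Levels were not compared between genes, since transcript lengths were not used. Genes described with values were the subunits of the catalytic pairs, the activators, the largest and smallest changes of each class, and chosen list genes. The members and lists were chosen with earlier results of these data known. Promoter windows came from RefSeq on GRCr8, and 1 planned motif is not reported here.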

Additional observations from a re-analysis of the deposited data

Results flagged for a closer look

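Of 110 sets of tendons examined for the proteasome genes and ratios described, 12 held a tendon set apart from the rest of its group by Dixon's test, which by chance marks about 5% of such sets. Groups of only 3 tendons, the control group among them, were not examined, nor were the list genes such as Tap1. The test thus says nothing on control tendons, where Psmb7 was at 414 CPM in replicate 4 beside 224 and 253 CPM. Replicate 2 of the 21D 0 mg/kg group accounted for 4 of the 12 sets. It held 45.6 CPM of Psmb8 beside 15.3 to 20.4 CPM in the other tendons, 70.1 CPM of Psmb9 beside 17.8 to 25.4 CPM, and 231 CPM of Psmb4 beside 286 to 296 CPM. Its Psmb8/Psmb5 log2 ratio was -0.95 beside -2.85 to -2.36. The same tendon had the highest leukocyte sum of its group (3517 CPM, with Ptprc at 459 CPM), whose part in these values was not tested.

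Replicate 3 of the 7D 0 mg/kg group had a Psmb10/Psmb7 log2 ratio of 0.032 beside -0.58 to -0.49, and replicate 1 of that group had 27.2 CPM of Psmb6 beside 19.8 to 20.8 CPM. In the 7D 2 mg/kg group replicate 5 had 94.2 CPM of Psmb3 beside 71.0 to 74.7 CPM and 369 CPM of Psmb4 beside 292 to 299 CPM. In the 21D 2 mg/kg group replicate 4 had 29.1 CPM of Psmb8 beside 13.7 to 17.3 CPM and 307 CPM of Psmb4 beside 287 to 291 CPM, and replicate 2 had 107 CPM of Psmc5 beside 97.5 to 99.7 CPM. Replicate 5 of the 21D 0 mg/kg group had 78.0 CPM of Psmb3 beside 72.1 to 73.7 CPM.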

How the results depend on the processing

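With library size alone the counts of genes higher than in control tendons were 12, 14 and 12 at 7D and 10, 9 and 12 at 21D for 0, 2 and 6 mg/kg. Those lower were 16, 12 and 17 and then 15, 14 and 14. Among all genes 53.9 to 59.5% were higher and 16.5 to 19.3% lower. With 6 mg/kg 3 were lower at 21D than at 7D, beside 799 of 12558 genes. With muscle genes removed 7 were higher at 7D and 7 at 21D with 0 mg/kg, and 4 at 21D 6 mg/kg, beside 44.6%, 43.1% and 39.3% of all genes. With the muscle share as a covariate the higher counts were 2, 0 and 0 at 7D and 1, 0 and 0 at 21D. The lower counts at 7D were 5 and 9 with 2 and 6 mg/kg, and the all-gene shares are those given above for this fit. There 0 were lower at 21D than 7D with 6 mg/kg, beside 158 of 12558 genes, and 2 differed across doses at 7D. A 1.5-fold threshold left 3 and 3 higher at 7D and 2 and 1 at 21D with 2 and 6 mg/kg, 20 lower at 21D 6 mg/kg and 0 lower between times with 2 mg/kg. All-gene shares are not given here for that threshold or for the dose tests of the alternative fits. With only the groups compared, 3 were higher at 7D 6 mg/kg (25.1% of all genes) and 3 lower between times with 6 mg/kg (610 of 12100 genes). DESeq2 called 1 gene across doses at 7D, 1 lower between times with 0 mg/kg (633 of 12543 genes), and 1 higher and 2 lower with 6 mg/kg (1401 and 820 of 12543). Same-numbered tendons did not deviate together (29 of 76 pairs had a correlation over 0.1, median 0.00685, beside 89 of 307 other pairs), so the numbers do not pair the tendons. With the replicate block 1 gene was lower between times with 2 mg/kg (680 of 12558 genes) and 1 higher with 6 mg/kg (1077 of 12558), and other counts stayed within 1.5 times. No count moved by over 1.5 times with RLE scaling or without the filter.

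With group medians the ratio differences at 7D and 21D were 1.92 and 1.48 for Psmb8/Psmb5, 2.72 and 1.95 for Psmb9/Psmb6, and 2.71 and 2.12 for Psmb10/Psmb7, none past the exact permutation test after adjustment. Leaving out 1 tendon, the differences from control tendons at 7D and 21D ranged from 1.98 to 2.75 and 1.44 to 2.21 for Psmb8/Psmb5, 2.46 to 3.14 and 1.63 to 2.40 for Psmb9/Psmb6, and 2.51 to 2.83 and 1.83 to 2.22 for Psmb10/Psmb7. Between times they ranged from -0.86 to -0.38, -1.13 to -0.54 and -0.80 to -0.50. The counts of higher genes ranged over 4 to 5, 5 to 6 and 3 to 5 at 7D and 3 to 4, 0 to 4 and 1 to 2 at 21D, and of lower genes over 29 to 34, 24 to 34 and 25 to 32 at 7D and 30 to 34, 30 to 34 and 26 to 34 at 21D. Between times the lower counts were 0 to 3, 0 to 3 and 0 to 1, and the higher count with 6 mg/kg was 0 to 2.

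Signs turned with library size alone for Psma5 (0.31 at 7D, 0.24 at 21D), Psmb3 (0.13, 0.10), Psmb4 (0.52, 0.44), Psmc3 (0.0070, 0.041) and Ddi2 (0.19 at 21D), and with muscle genes removed for Psmb4 (0.15, 0.12). They turned with the covariate for Psme1 (-0.049 at 7D), Psme2 (-0.071, -0.14) and Psme3 (-0.055, -0.036). Without control replicate 4 they turned for Psmb4 (0.11, 0.076) and Psme3 (-0.040, -0.056), without control replicate 2 for Psme2 (-0.15 at 21D), and without 21D 0 mg/kg replicate 2 for Psme2 (-0.01) and Psme3 (-0.00). Over the fits that left out 1 tendon, Psmb4 ranged from -0.32 to 0.11 at 7D and -0.36 to 0.076 at 21D, Psme2 from -0.15 to 0.27 at 21D, and Psme3 from -0.040 to 0.15 at 7D and -0.056 to 0.13 at 21D. The cause of these changes was not tested. Every comparison with control tendons rests on the same 3 tendons, 1 of them richer in muscle transcripts.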
